A study of Mus musculus with 12 samples.

Results

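The 10 genes described here are those of active DNA demethylation, chosen by name: the dioxygenases Tet1, Tet2 and Tet3, the DNA glycosylases Tdg, Smug1 and Mbd4, and the later base excision repair genes Apex1, Parp1, Xrcc1 and Lig3. Of these, 9 had a row among the 12516 gene symbols of the table, and all 9 passed the filter on low values with 12432 genes in all; Tdg was not analysed here. The RNA came from Oct4+ germ cells, sorted from 1 female E13.5 embryo (embryonic day 13.5) per library. Both groups were Gulo-/-, with C57BL/6 as the background strain. Gulo encodes the enzyme of the last step of vitamin C synthesis, so these mice depend on their food for the vitamin. In the supplied group (6 embryos) the colony received vitamin C at a physiological level, and in the withdrawn group (6 embryos) it was taken away for the first 2 weeks of pregnancy. The comparison asks whether transcripts of the demethylation machinery in the embryonic germline differ with the vitamin C of the mother.

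TET enzymes oxidize 5-methylcytosine to 5-hydroxymethylcytosine and further to 5-formylcytosine and 5-carboxylcytosine. They need iron(II), 2-oxoglutarate and oxygen, and vitamin C raises their activity by keeping the iron reduced. The oxidized bases are diluted at replication or removed by base excision repair, in which a glycosylase cuts out the base, APEX1 cuts the DNA at the abasic site, PARP1 senses the break, XRCC1 holds the repair proteins together and LIG3 seals the strand. Germ cells of this age have lost most of their DNA methylation, and TET1 is known for its part in activating meiotic genes in female germ cells.

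The promoters of the 4 members that changed are shown because Tet1, Apex1 and Parp1 rose while Tet3 fell. Each is the RefSeq window of 300 bases, from 250 before to 50 after the gene's start, in build GRCm38.p6 on the gene's own strand; RefSeq gave a promoter for all 10 members. Capitals mark CpG dinucleotides, the substrate of DNA methylation. Tet1 lies at chr10:62887275-62887574 (minus strand), Tet3 at chr6:83441629-83441928 (minus strand), Apex1 at chr14:50924699-50924998 (plus strand) and Parp1 at chr1:180568641-180568940 (plus strand).
Tet1: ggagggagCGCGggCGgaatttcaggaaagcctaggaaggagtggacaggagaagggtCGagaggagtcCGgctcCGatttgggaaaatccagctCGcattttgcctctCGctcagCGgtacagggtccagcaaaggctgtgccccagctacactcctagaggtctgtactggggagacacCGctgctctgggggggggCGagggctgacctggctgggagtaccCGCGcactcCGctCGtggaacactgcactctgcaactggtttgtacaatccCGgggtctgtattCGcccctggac
Tet3: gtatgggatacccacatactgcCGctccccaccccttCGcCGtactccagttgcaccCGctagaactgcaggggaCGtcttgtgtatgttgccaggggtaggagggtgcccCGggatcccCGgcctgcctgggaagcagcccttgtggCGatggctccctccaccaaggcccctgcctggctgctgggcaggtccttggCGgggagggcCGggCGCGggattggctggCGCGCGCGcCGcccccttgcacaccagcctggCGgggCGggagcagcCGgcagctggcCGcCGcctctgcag
Apex1: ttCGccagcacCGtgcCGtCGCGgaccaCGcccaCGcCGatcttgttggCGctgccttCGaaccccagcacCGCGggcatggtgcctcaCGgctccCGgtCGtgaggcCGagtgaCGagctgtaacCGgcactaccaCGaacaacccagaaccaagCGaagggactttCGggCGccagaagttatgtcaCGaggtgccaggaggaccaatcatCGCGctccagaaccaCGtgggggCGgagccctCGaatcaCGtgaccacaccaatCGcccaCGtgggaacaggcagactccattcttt
Parp1: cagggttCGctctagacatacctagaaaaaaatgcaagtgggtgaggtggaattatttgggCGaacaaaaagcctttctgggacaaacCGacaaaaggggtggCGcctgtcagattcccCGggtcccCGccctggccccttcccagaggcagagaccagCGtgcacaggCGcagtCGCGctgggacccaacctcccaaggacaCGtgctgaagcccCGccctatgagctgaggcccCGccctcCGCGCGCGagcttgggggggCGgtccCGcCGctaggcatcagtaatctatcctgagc

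These windows held 17 CpGs for Tet1, 22 for Tet3, 31 for Apex1 and 20 for Parp1, against a median of 7 (quartiles 3 and 20) over 32851 promoters of this length. Tet2 had the most CpGs of the 10 members with 57, and Xrcc1 the fewest with 7. The E-box CACGTG, read on both strands, occurred 3 times in Apex1 and 1 time in Parp1, with no match in Tet1 or Tet3. Of all promoters, 7.15% hold it. Among the other members, Lig3, which was not called, and Tdg, which was not analysed, each held it 1 time. The GC box GGGCGG (35.7% of all promoters) matched 4 times in Parp1, 2 times in Tet3 and 1 time each in Tet1 and Apex1. The CCAAT box (37.4% of all promoters) matched 2 times in Apex1 and 1 time in Tet3, with no match in Tet1 or Parp1. The 3 motifs do not contain one another, and a match describes the letters only.

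Values are normalized log2 expression, with a lowest value of 2.82 in the table and a median value of 8.11. The sequencing depth of the libraries is unknown. Library medians lay between 8.10 and 8.15. Of the 12 germ cell markers, 10 lay above the median gene, and Pou5f1, which encodes Oct4, was itself higher in withdrawn embryos (log2 fold change 0.45, adjusted p = 0.00505). Of 30 markers of supporting, mesenchymal, endothelial, macrophage and mesonephric cells, 1 lay above the median gene. Their mean ranged from 5.09 to 5.29 in supplied and from 5.06 to 5.16 in withdrawn embryos, and all 12 supporting cell markers were lower on average in withdrawn embryos, with Emx2 past the test (-0.18). Fbln1 (-0.29) and Gata3 (-0.19) were also called lower. The 30 leave out 3 kept markers that germ cells also express, Epcam, which was called higher (0.22, adjusted p = 0.0290), Pecam1 (0.20, adjusted p = 0.0789) and Cdh1 (0.07, adjusted p = 0.623), and 0 of 7 red cell markers were kept. Of the 12 germ cell markers 6 were called higher and 2 lower, the later genes Dazl (-0.43) and Ddx4 (-0.34). The part of these shifts in the results on the members was not tested beyond the covariate fit given with the counts. Fewer cells of a type and less RNA per cell cannot be told apart in such bulk samples. Sample titles are numbered 1 to 4 in each diet, with 2 embryos per diet for numbers 1 and 4; whether those embryos are litter mates is not given in the sources used here, so the p-values may measure partly the spread within litters.

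Of the 9 members, 3 were called higher in withdrawn embryos (Tet1, Apex1, Parp1) and 1 lower (Tet3), at an adjusted p below 0.05. Over all 12432 genes, 6.22% were called higher, 7.75% lower and 14.0% in either direction. The groups did not overlap for 2 members, Tet3 and Parp1, where 4.49% of all genes had groups that did not overlap. The median log2 fold change (withdrawn minus supplied) was 0.13 over the members and -0.01 over all genes. All 4 changes were small, from 1.19-fold to 1.40-fold. They kept their direction in all 27 alternative analyses. Those that changed only the test, the filter, the variance trend or a fixed title number term reuse the same estimate, so direction could not change there. Another 12 left out 1 embryo each. None of the 4 was called without the 4 embryos of title number 4 or with the mean of the somatic markers as a covariate. In that covariate fit 1 gene of 12432 was called, and the log2 fold changes had larger SEs: 0.22 (SE 0.12) for Tet1, -0.30 (SE 0.10) for Tet3, 0.21 (SE 0.10) for Apex1 and 0.21 (SE 0.08) for Parp1.

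**Figure D1:**
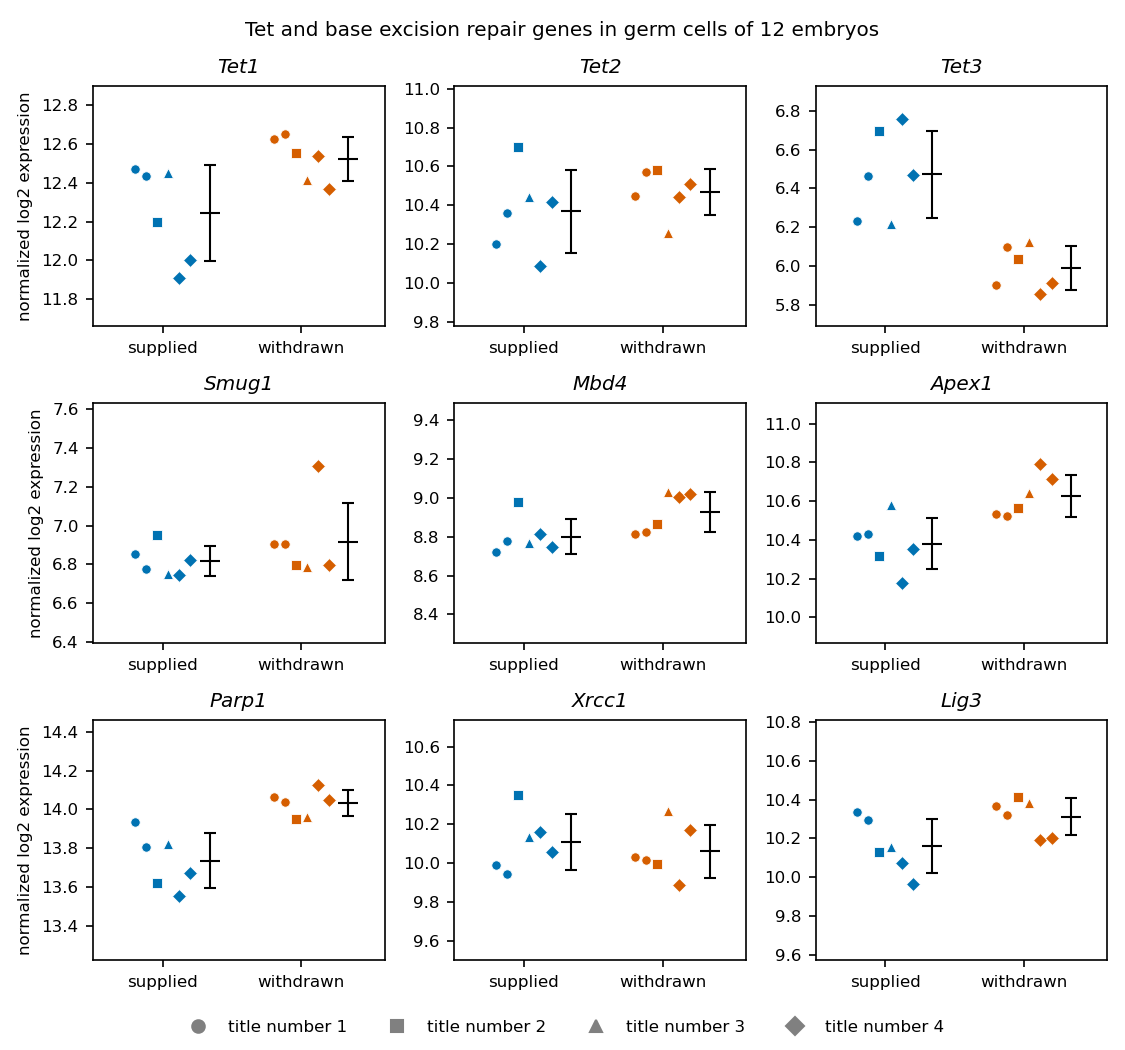
Normalized log2 expression of the 9 members (vertical axes, each spanning the same range) in 6 supplied and 6 withdrawn embryos; symbols give the title number, and bars the mean with 1 SD (n = 6). All 6 withdrawn embryos lie below all supplied embryos for Tet3 and above them for Parp1, while the other 7 genes overlap.

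Tet1, the main Tet gene of embryonic stem cells and early germ cells, had a lowest value of 11.91, a median of 12.32 and a highest of 12.47 in supplied embryos. In withdrawn embryos it had 12.37, 12.54 and 12.65. The highest 4 values were from withdrawn embryos and the lowest 3 from supplied embryos 3, 5 and 6, with overlap between 12.37 and 12.47. Tet1 rose from a mean of 12.24 ± 0.25 to 12.52 ± 0.11 (SD, n = 6 each), which is 0.28 on the log2 scale or 1.21-fold (SE 0.09, adjusted p = 0.0401). The spread of Tet1 was wider among supplied embryos, where the 2 embryos of title number 4 were the lowest. The exact permutation test of Tet1 gave p = 0.0325, which became 0.141 after adjustment over all genes. The call was lost without supplied embryo 3, 5 or 6 or withdrawn embryo 1, 2, 3 or 5, with adjusted p up to 0.114 in these fits. It was also lost with a random effect for embryos that share title number and diet (adjusted p = 0.0699), with those embryos averaged (0.1496), with quantile normalization (0.0648), without a variance trend (0.0695) and without title number 1 (0.0595), 2 (0.101) or 4 (0.290).

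Tet2, which lacks the CXXC domain that TET1 and TET3 use to bind DNA, ranged from 10.09 to 10.70 around a median of 10.39 in supplied embryos. Withdrawn embryos ranged from 10.25 to 10.58 around a median of 10.48, wholly inside the supplied range. Its log2 fold change was 0.10 with a 95% interval of -0.08 to 0.28 (adjusted p = 0.463).

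Tet3, the Tet gene known for oxidizing the paternal genome in the zygote, had 6.22, 6.47 and 6.76 as lowest, median and highest value in supplied embryos. In withdrawn embryos it had 5.86, 5.97 and 6.13. Every withdrawn embryo was below every supplied embryo, with the nearest pair, both of title number 3, at 6.13 and 6.22. Tet3 fell from 6.47 ± 0.23 to 5.99 ± 0.11 (SD, n = 6 each), a difference of -0.48 (SE 0.08, adjusted p = 0.00219), or 1.40-fold lower. Of all genes, 1.04% had a larger absolute fold change. The exact permutation p was 0.00216, the smallest that the arrangements of 6 and 6 embryos can give. Any gene without overlap has this value. The value of Tet3 was -0.36 without title number 4 (adjusted p = 0.0765) and -0.30 with the somatic covariate (adjusted p = 0.198), and it remained called when any single embryo was left out. Its level was at the 24.8th percentile of genes; how the log2 transformation treats low values is not given in the sources used here.

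Because Tet1 rose and Tet3 fell, the balance among the 3 Tet genes shifted. Tet1 minus Tet3 on the log2 scale, in which a shift of a whole library cancels, ranged from 5.15 to 6.24 in supplied and from 6.29 to 6.72 in withdrawn embryos, with means of 5.77 ± 0.45 and 6.54 ± 0.16 (SD, n = 6 each). The lowest withdrawn embryo was thus above the highest supplied embryo; this is a description, as both genes were known to differ. Divided by the length of the longest coding transcript (14369 bases for Tet1, 9179 for Tet2, 10904 for Tet3) and returned to a linear scale, Tet1 made up 68.8% ± 4.5 of the summed Tet values in supplied and 71.9% ± 1.7 in withdrawn embryos. Tet2 made up 29.5% ± 4.2 and 27.1% ± 1.7, and Tet3 1.71% ± 0.47 and 1.03% ± 0.11. The shares of Tet1 and Tet2 overlapped between the diets, and the Tet3 shares did not, at 1.24% to 2.51% in supplied and 0.918% to 1.23% in withdrawn embryos. The summed Tet level per kilobase was 8.94 ± 0.19 in supplied and 9.16 ± 0.10 in withdrawn embryos on the log2 scale. How values became log2 is not given in the sources used here. The shares therefore need not be proportions of transcripts, in particular for Tet3, the lowest of the 3. The shares rest on the transcript chosen: with the median coding transcript of each gene, the level per kilobase over both diets was 13.20 for Tet1, 8.17 for Tet2 and 3.66 for Tet3, against 8.54, 7.22 and 2.78 with the longest.

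**Figure D2:**
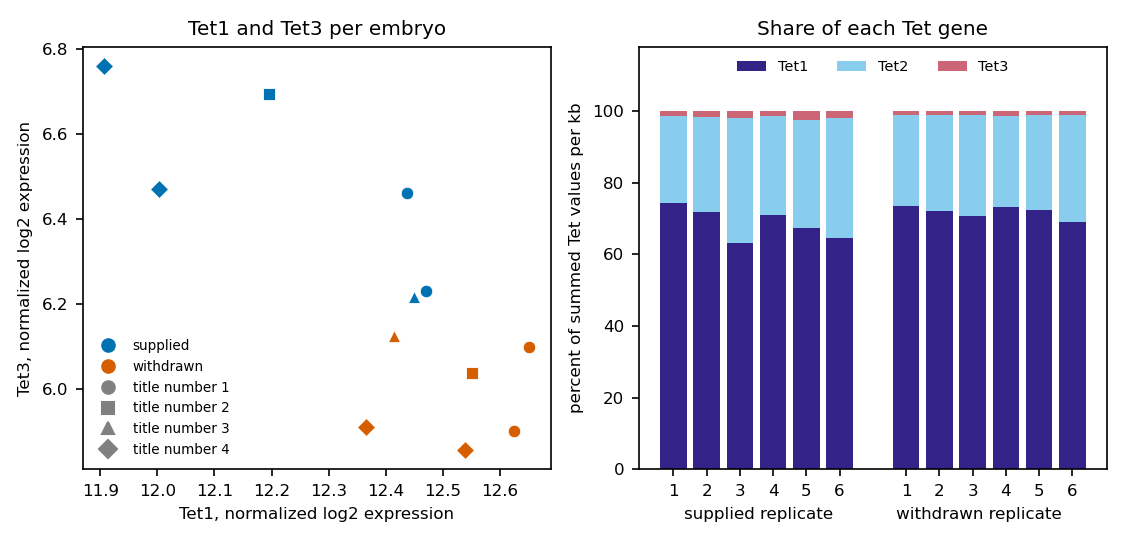
Left, Tet1 (horizontal) against Tet3 (vertical) in normalized log2 expression, 1 point per embryo. Right, the percent of the summed Tet values per kilobase of longest coding transcript that each Tet gene gave in each embryo. Withdrawn embryos lie below all supplied embryos for Tet3, while the diets overlap for Tet1. Tet3 gives 0.918% to 2.51% of the sum.

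Among the glycosylases, Smug1, which removes uracil and 5-hydroxymethyluracil, ranged from 6.74 to 6.95 with a median of 6.80 in supplied embryos and from 6.79 to 7.31 with a median of 6.85 in withdrawn embryos. Withdrawn embryo 5 stood alone at 7.31, and the next value was 6.91. The log2 fold change was 0.10 (95% interval -0.06 to 0.26, adjusted p = 0.416). Mbd4, a methyl-CpG binding glycosylase that acts on T and U paired with G, ranged from 8.72 to 8.98 (median 8.77) in supplied and from 8.82 to 9.03 (median 8.94) in withdrawn embryos. All 6 withdrawn embryos were above the supplied mean of Mbd4, and supplied embryo 3 at 8.98 lay among them. Mbd4 did not pass (log2 fold change 0.13, 95% interval -0.01 to 0.27, adjusted p = 0.216). Neither glycosylase was called in any of the 27 alternatives.

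Of the genes that act after base removal, Parp1, the poly(ADP-ribose) polymerase that marks DNA breaks, rose without overlap. It had 13.55, 13.74 and 13.94 as lowest, median and highest value in supplied embryos and 13.95, 14.04 and 14.13 in withdrawn embryos. The groups were close at their edges, where supplied embryo 1 at 13.94 and withdrawn embryo 3 at 13.95 were nearly equal. Parp1 rose from 13.74 ± 0.14 to 14.03 ± 0.07 (SD, n = 6 each), a rise of 0.30 (SE 0.07, adjusted p = 0.00675) or 1.23-fold. Its exact permutation p was 0.00216, the value that any gene without overlap has. It was called with any single embryo left out and lost its call with embryos of the same title number and diet averaged (0.28, adjusted p = 0.0557) without title number 4 (0.21, adjusted p = 0.184) and with the somatic covariate (0.21, adjusted p = 0.279).

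Apex1, the endonuclease that cuts at abasic sites and also reduces transcription factors, had 10.18, 10.39 and 10.58 in supplied and 10.52, 10.60 and 10.79 in withdrawn embryos (lowest, median and highest). Supplied embryo 4 at 10.58 lay above 3 withdrawn embryos, and the other 5 supplied embryos were below all 6. Apex1 rose from 10.38 ± 0.13 to 10.63 ± 0.11 (SD, n = 6 each), a rise of 0.25 (SE 0.07, adjusted p = 0.0254) or 1.19-fold. The call was lost without supplied embryo 3, 5 or 6 or withdrawn embryo 5 or 6 (adjusted p up to 0.0764) and without title number 4 (0.13, adjusted p = 0.398). It was also lost with the random effect (adjusted p = 0.0573), with averaging (0.131), by the exact test (0.0754) and without title number 1 (0.0543) or 2 (0.0541). In GENCODE M21, 70.8% of the exon bases of Apex1 are shared with exons of Pip4p1 on the other strand, and the strand setting of the count is not given in the sources used here. Pip4p1, listed under its older symbol Tmem55b, was at 8.45 ± 0.20 in supplied and 8.59 ± 0.12 in withdrawn embryos and did not pass (0.14, adjusted p = 0.287).

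Lig3, the ligase that partners XRCC1, ranged from 9.97 to 10.34 (median 10.14) in supplied and from 10.19 to 10.41 (median 10.35) in withdrawn embryos. All 6 withdrawn embryos were above the supplied mean, but 2 supplied embryos, both of title number 1, lay among them at 10.29 and 10.34. Lig3 did not pass (log2 fold change 0.15, 95% interval 0.01 to 0.30, adjusted p = 0.152). Lig3 shares 27.9% of its exon bases with Rffl on the other strand, and Rffl was higher in withdrawn embryos (9.88 ± 0.11 and 10.19 ± 0.14, log2 fold change 0.31, adjusted p = 0.00998); whether its reads enter the Lig3 value was not tested. Xrcc1, the scaffold protein of single-strand break repair, ranged from 9.94 to 10.35 (median 10.10) in supplied and from 9.89 to 10.27 (median 10.02) in withdrawn embryos. Its log2 fold change was -0.05 (95% interval -0.21 to 0.11, adjusted p = 0.738).

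Per kilobase of longest coding transcript, the members stood in the same order of level in both diets. Parp1 led at 11.78 in supplied and 12.08 in withdrawn embryos on the log2 scale, followed by Apex1 (10.07 and 10.32), Xrcc1 (8.77 and 8.72) and Tet1 (8.40 and 8.68). Lig3 (7.59 and 7.74), Tet2 (7.17 and 7.27) and Mbd4 (6.95 and 7.07) came next, then Smug1 (4.86 and 4.96) and Tet3 (3.03 and 2.54). Tet2 and Mbd4 lay close to each other in both diets. Xrcc1 and Tet1 lay close among withdrawn embryos (8.72 and 8.68) and further apart among supplied embryos (8.77 and 8.40). The order of these neighbours was not tested. Tet3 lay at the 7.29th percentile of genes with a known length and Parp1 at the 99.3rd. The order rests on the transcript chosen: Tet1, with 8 coding models, stood above Apex1 with each gene's median transcript (13.20 and 10.53 over both diets).

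**Figure D3:**
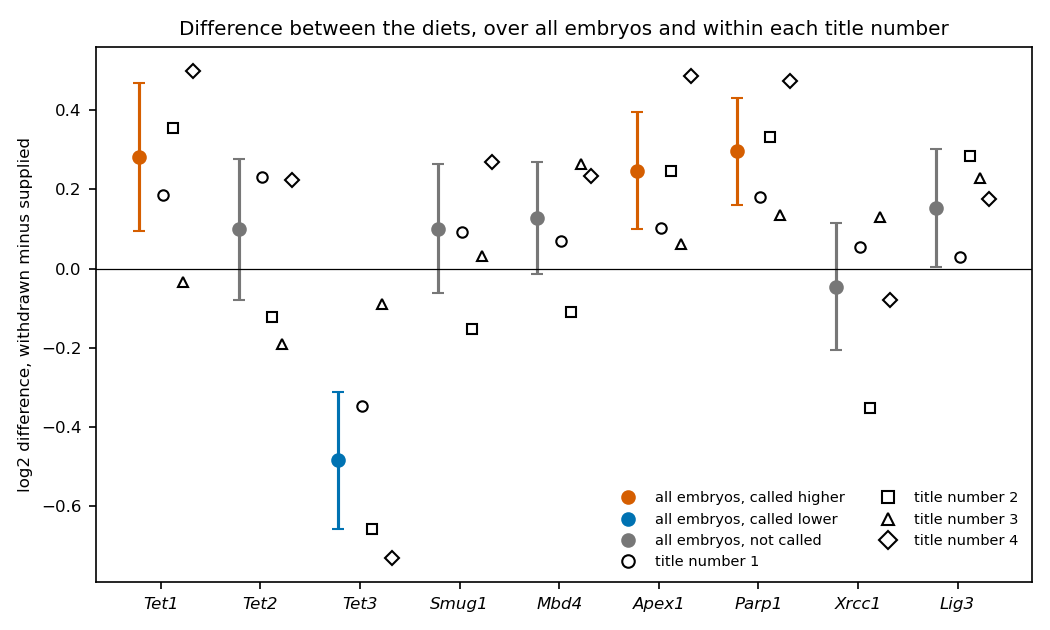
Withdrawn minus supplied log2 difference for each member: filled points with 95% intervals are the limma estimate over 12 embryos, and open symbols the difference of means within each title number. For Tet1, Tet3, Apex1 and Parp1 the embryos of title number 4 give the largest difference and those of title number 3 the smallest.

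The differences were not equal across title numbers. For Tet3 the withdrawn minus supplied difference was -0.35 for number 1, -0.66 for number 2, -0.09 for number 3 and -0.73 for number 4, the same sign 4 times. For Parp1 it was 0.18, 0.33, 0.14 and 0.47, and for Apex1 0.10, 0.25, 0.06 and 0.49, again the same sign 4 times. Tet1 was at 0.18, 0.35, -0.03 and 0.50, so the sign turned for number 3. Numbers 2 and 3 have 1 embryo per diet, and what the number stands for is not given in the sources used here. Lig3 was positive for all 4 numbers (0.03 to 0.28), while Tet2 and Xrcc1 were each positive for 2 and negative for 2.

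Variation within the diets linked some of these members. After each diet's mean was subtracted, the deviations of Tet3 over the 12 embryos correlated with those of Parp1 at r = -0.89, of Apex1 at r = -0.76 and of Tet1 at r = -0.62. Those of Tet1 correlated with Parp1 at r = 0.78 and with Lig3 at r = 0.70, and Apex1 with Parp1 at r = 0.68. The sixth pair of the 4 called members, Tet1 and Apex1, was at r = 0.43. The deviations of all genes with those of Tet3 had a median r of 0.03, with 5% of genes below -0.59 and 5% above 0.62. The upper 5% began at 0.64 for Tet1, 0.61 for Parp1 and 0.70 for Apex1, so Tet1 with Apex1 lay inside this range, and Apex1 with Parp1 lay inside that of Apex1. Tet2 showed no such pattern, with r between -0.15 and 0.22 for the other members. These values describe 12 libraries that share processing, and embryos of one title number may share a mother.

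By the same measure the genes most like Tet1 were Ankrd28 (r = 0.96), Utp20 (r = 0.94), a factor of ribosome assembly, and Prdm1 (r = 0.94), the transcriptional repressor that specifies germ cells. Prdm1 was also called higher in withdrawn embryos (9.97 and 10.23, log2 fold change 0.26, adjusted p = 0.0438), and the other two were not. The genes most like Tet2 were the RNA helicase gene Eif4a2 (r = 0.95), the deadenylase gene Cnot6 (r = 0.91) and Fam48a (r = 0.91), none of them called. The genes most like Tet3 were the Wnt antagonist Nkd1 (r = 0.95), Kctd12 (r = 0.91) and Ccdc79 (r = 0.91). Nkd1 was lower in withdrawn embryos (7.74 and 7.33, log2 fold change -0.41, adjusted p = 0.00304), as was Ccdc79 (-0.22, adjusted p = 0.0182), and Kctd12 did not pass (0.01). Predicted genes and Rik, Gm and similar symbols were left out. The genes named are those with the highest of the remaining correlations, chosen for their size.

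Of 22 other base excision repair genes listed, 20 were kept, 3 were higher and 1 was lower, with a median log2 fold change of 0.04. The exact test called 0 higher and 1 lower, with 4 at an unadjusted p below 0.05 by limma. Over all genes, limma called 14.0%, and 4.49% had groups without overlap, which are those the exact test called. An unadjusted p below 0.05 by limma was reached by 3754 of all 12432 genes. Neil3, a glycosylase for oxidized bases in single-stranded DNA, ranged from 7.79 to 7.94 in supplied and from 7.20 to 7.73 in withdrawn embryos without overlap, and fell by 0.32 on the log2 scale (SE 0.08, adjusted p = 0.0110). Ung, the main uracil glycosylase, rose from 10.48 ± 0.16 to 10.76 ± 0.12 (SD, n = 6 each; 0.28, adjusted p = 0.0198). Parp2, the close relative of Parp1, rose from 9.49 ± 0.13 to 9.77 ± 0.14 (0.28, adjusted p = 0.0211). Adprhl2, which removes ADP-ribose from proteins, rose by 0.23 (adjusted p = 0.0439). The poly(ADP-ribose) glycohydrolase gene Parg (-0.07), the repair polymerase gene Polb (-0.01), the ligase gene Lig1 (-0.06) and Neil1 (-0.01) did not pass.

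Of 22 partners and regulators of TET proteins, limma called 6 higher and 0 lower, with 8 at an unadjusted p below 0.05 and a median of 0.06. Over all genes, limma called 6.22% higher and 7.75% lower, and 3754 of 12432 had an unadjusted p below 0.05. The exact test called 3 higher and 0 lower, namely Hdac1, Dppa3 and Nanog. Nanog was not called by limma (0.14, adjusted p = 0.0889). Gadd45a, a stress gene linked to demethylation through TDG, ranged from 7.62 to 8.03 in supplied and from 7.94 to 8.41 in withdrawn embryos and rose by 0.41 (SE 0.09, adjusted p = 0.00505). Its partner Ing1, a reader of methylated histone H3, rose by 0.26 (adjusted p = 0.0362). Hdac1, a deacetylase of the SIN3A complex that TET1 joins, ranged from 10.39 to 10.53 and from 10.59 to 10.89 without overlap (0.29, adjusted p = 0.00657). Dppa3, which shields methylated DNA from TET3 in the zygote, ranged from 11.80 to 12.11 and from 12.12 to 12.28 without overlap (0.23, adjusted p = 0.0205). Ddb1, of the ubiquitin ligase that modifies TET proteins, rose by 0.22 (adjusted p = 0.0242), and Sall4, a transcription factor of germ cells, rose by 0.23 (adjusted p = 0.0304). The O-GlcNAc transferase gene Ogt, a stable TET partner, was at 0.00 (adjusted p = 0.976).

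In 2-oxoglutarate metabolism, limma called 2 of 19 genes higher and 0 lower, with 3 at an unadjusted p below 0.05 and a median of 0.02. The exact test called 1 higher and 0 lower. The shares over all genes were 14.0% by limma and 4.49% by the exact test, so this list did not stand out. Of all 12432 genes, 3754 had an unadjusted p below 0.05. The isocitrate dehydrogenase subunit gene Idh3b rose from 9.96 ± 0.09 to 10.27 ± 0.21 without overlap (0.32, adjusted p = 0.0169), and the glutamate dehydrogenase gene Glud1 rose by 0.28 (adjusted p = 0.0201). Idh1 (0.05) and Idh2 (-0.01), which make 2-oxoglutarate outside the Idh3 complex, did not pass. Of 7 genes for proteins that bind oxidized methylcytosine, Mbd3 was higher (10.57 ± 0.10 and 10.82 ± 0.18, 0.25, adjusted p = 0.0403) and limma called 0 lower, with 4 at an unadjusted p below 0.05 and 0 called by the exact test. Of the 5 cytosine deaminase genes, 3 were kept and limma called 0, as did the exact test. Apobec2 (3.79 and 3.87) had an unadjusted p below 0.05, and Apobec3 (4.37 and 4.43) and Apobec1 (4.39 and 4.39) did not; these levels lie near the lowest of the table. Of the 71 genes of these lists, 12 were called higher and 1 lower, where limma called 6.22% of all genes higher and 7.75% lower. Without title number 4 or with the somatic covariate limma called 0 of the 71. With the covariate, Gadd45a (0.41), Hdac1 (0.30) and Idh3b (0.31) kept their size with larger SEs (0.12, 0.09 and 0.12), and Mbd3 was larger (0.28). The other called list genes shrank, Glud1 to 0.12, Sall4 to 0.15, and Adprhl2, Dppa3 and Ddb1 to 0.17. Among these, Ung was at 0.22, Parp2 at 0.24, Ing1 at 0.25 and Neil3 at -0.26. The reason was not tested. With the random effect 5 were called higher and 1 lower, and Ung, Adprhl2, Ddb1, Sall4, Ing1, Glud1 and Mbd3 lost their calls (adjusted p from 0.0510 to 0.111). With averaging 1 was called higher (Gadd45a) and 0 lower. The exact test called 4 higher (Hdac1, Dppa3, Idh3b and Nanog, the last not called by limma) and 1 lower (Neil3).

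**Figure D4:**
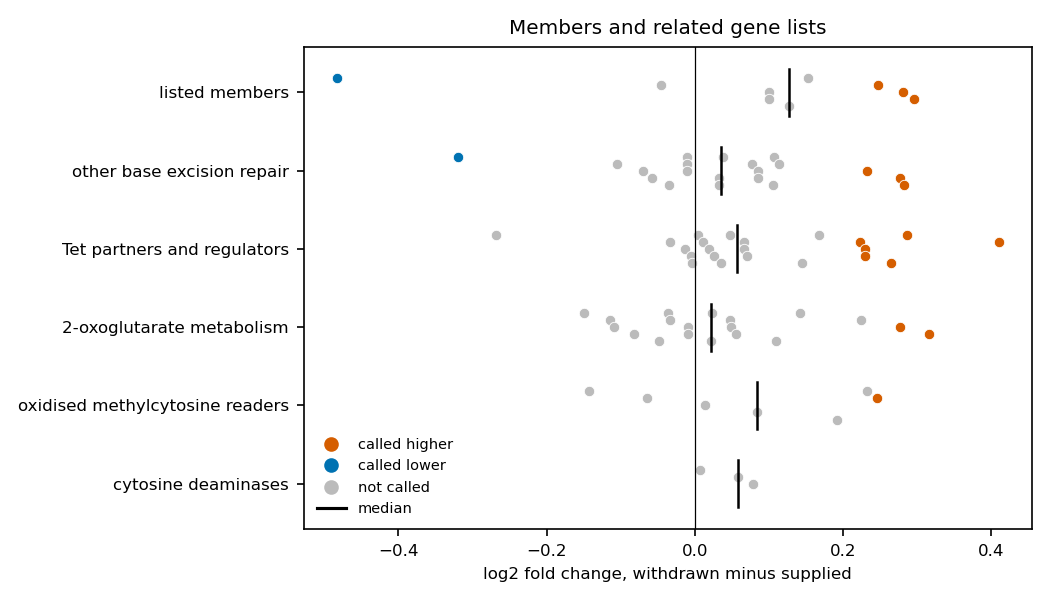
Log2 fold change (withdrawn minus supplied, horizontal) of each gene of the members and of the 5 related lists (rows); black bars are list medians. Called genes reach from -0.48 (Tet3) to 0.41 (Gadd45a), and the list medians lie between 0.02 and 0.13.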

How the data were processed

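RNA-seq libraries of sorted germ cells from 12 embryos were compared. The authors deposited 1 table of normalized log2 expression values per gene and embryo. The submitters' processing notes name DESeq2 1.10.1, TopHat2 2.0.13, FastQC, Trim Galore 0.4.0 and build mm9, without roles. How reads were counted, on which annotation, and how values became log2 is not stated there. Without counts the depth is unknown, and no count model was fitted.

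Genes with a mean of at least log2 of 10 (3.32) were kept, and diets were compared with limma 3.58.1 in R 4.3.3 (moderated variances with an expression trend, two-sided, Benjamini-Hochberg over all 12432 genes, called below 0.05). Adjusted p-values are from this fit unless another is named. Exact permutation tests used every arrangement of the embryos, two-sided. After adjustment they called the 558 genes whose groups did not overlap, so an exact call restates the lack of overlap. The members and lists were chosen with earlier results of these data known, so list counts carry no test. Text names all members and the called genes of each list (up to 6 by p, otherwise 3). It also names the 3 genes most correlated with each Tet gene, with predicted genes and similar symbols left out. Uncalled list genes beyond these, and the genes sharing exons with members, were chosen after their values were seen. Older symbols were matched through RefSeq synonyms. GENCODE M21 (GRCm38) gave transcript lengths (matched for 87.3% of genes) and overlaps. The fit was tested on simulated data with independent noise for each gene and embryo, so that test does not cover embryos that resemble each other, such as those of one title number. Alternatives changed the filter, scaling, variance model, weights, block, covariate, test and embryos included.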

Additional observations from a re-analysis of the deposited data

Results flagged for a closer look

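In groups of 6 embryos, the highest or lowest value was checked for a gap to its neighbour above 0.625 of the group's range. Of 50 groups (25 genes in both diets), 6 met this, and chance gives about 1 in 20. Withdrawn embryo 5 stood apart 3 times, with Smug1 at 7.31 (next value 6.91), Neil3 at 7.20 (next 7.58) and Ddb1 at 13.31 (13.3147, next 13.16). Among supplied embryos, Mbd4 was high in embryo 3 (8.98, next 8.81), Adprhl2 low in embryo 2 (7.38, next 7.60) and Idh3b low in embryo 5 (9.78, next 9.94). Withdrawn embryo 5 also had the highest value of the first principal component (45.5% of the variance) at 23.2, where the other withdrawn embryos lay between 1.27 and 9.49. Supplied embryo 5 had the lowest at -18.3, where the other supplied embryos lay between -11.2 and 1.54. Both are of title number 4. Without withdrawn embryo 5, 1 member was called higher and Tet3 was at -0.46 (adjusted p = 0.00402). Without supplied embryo 5, 1 member was called higher and Tet3 was at -0.43 (adjusted p = 0.00577).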

How the results depend on the processing

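Of the 27 alternatives, 25 kept the Tet3 call, 24 Parp1, 15 Apex1 and 11 Tet1. No called member or called list gene changed sign, which alternatives in only the test, filter, variance trend or fixed block could not produce. The 1737 called genes and the members called higher (3) and lower (1) became 886, 1 and 1 with a random effect for embryos that share title number and diet, 298, 0 and 1 with them averaged, 1, 0 and 0 with the somatic covariate, and 558, 1 and 1 by the exact test. Without title number 1 they were 729, 1 and 1, without number 2 the members were 1 and 1, and without number 4 the counts were 49, 0 and 0. Leaving out 1 embryo gave 808 (without supplied embryo 5) to 2315 genes (without supplied embryo 4) and 1 to 3 members higher. Median centring gave 904 genes higher and 795 lower, against 773 and 964, with the median gene at 0.01 against -0.01. The replicate block of title numbers gave 2062 called genes and the same 4 members; across diets, deviations of the same number correlated at r of -0.17 to 0.27, and not every number correlated best with itself. Within diets, embryos sharing a number correlated at 0.21 and 0.28 (supplied) and 0.21 and -0.16 (withdrawn). Pairs with different numbers ran from -0.62 to -0.05 (supplied) and from -0.54 to 0.23 (withdrawn). The random effect estimated a correlation of 0.27. Uncalled Xrcc1 changed sign with library weights (0.0080), the somatic covariate (0.0361) and without title number 2 (0.0162), and ran from -0.0864 to 0.00345 with 1 embryo left out. Uncalled Apobec1 was negative without title number 3 (-0.0237) and ran from -0.0111 to 0.0273 with 1 embryo left out. The cause was not tested. Depth is unknown and limits low genes such as Tet3 to an unknown degree.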
